A study of Homo sapiens with 2 samples.

Results

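The BCL2 family decides whether the outer membrane of the mitochondrion stays intact when a cell is under stress, and 10 of its genes were followed here in THP-1 cells with and without silencing of LY6E. The members were listed by name: BCL2, BCL2L1, BCL2A1 and MCL1, which oppose apoptosis, BAX and BAK1, which form the pore, and BID, BAD, BIK and PMAIP1, which carry a BH3 domain only and promote apoptosis. All probes whose single gene symbol was one of these were taken, 22 probes for the 10 genes of 20046 genes named on the array. Of the 10 genes, 9 had a detected probe and 1, BCL2A1, had none, whereas 10565 genes were detected in all.

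THP-1 is a human monocytic leukaemia cell line. The shLY6E cells are a stable derivative that expresses a short hairpin RNA directed at LY6E, and the shCtrl cells a stable derivative that expresses a scrambled hairpin. Both were grown under puromycin, and total RNA of each was hybridised to 1 single-colour Illumina array. There was thus 1 array in each group, no spread between samples and no test of any difference, and a difference between the 2 derivatives cannot be told apart from a difference between the 2 cultures or arrays. The labels do not say whether either derivative is a clone.

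In brief background, the anti-apoptotic proteins hold the pore-forming proteins BAX and BAK1 in check. BH3-only proteins bind the anti-apoptotic proteins or act on BAX and BAK1 directly, and the open pore releases cytochrome c, which starts the caspase cascade. Myeloid leukaemia cells are known to lean on BCL2 and MCL1 for survival, and much of the family's control lies in protein turnover, cleavage and phosphorylation, which an mRNA array does not read.

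Detection was called at a detection p-value under 0.01, the share of negative control probes that are as bright. The dimmest detected probe had an intensity of 106 in shLY6E and 129 in shCtrl, and 34.6% of the 47321 probes were detected in shLY6E and 34.4% in shCtrl. The shLY6E array was dimmer as a whole: over probes detected on both arrays the median ratio of deposited intensities, shLY6E over shCtrl, was 0.745, and 5.28% of these probes were brighter in shLY6E. Every difference below is therefore a log2 value, shLY6E minus shCtrl, taken after background correction and quantile normalization. Over the 10565 genes the median difference was -0.041, and the central 95% of genes lay between -1.01 and 0.94. As a yardstick, detected probes of the same gene differed with an SD of 0.28 (log2) across 2254 genes, read on the same arrays. LY6E itself had a deposited intensity of 253 in shLY6E cells and 1049 in shCtrl cells, a log2 difference of -1.88. Of 11 monocytic markers with a probe, all 11 were detected on both arrays, CSF1R, SPI1 and CD14 among them.

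The BCL2 family did not differ in one direction. Of the 9 detected members, BIK was the 1 member at least 2-fold lower in shLY6E cells, where 2.55% of all detected genes were, and 0 members were at least 2-fold higher, where 2.27% were. At 1.5-fold, BID was the 1 member higher, against 6.55% of all genes, and BIK again the 1 lower, against 9.63%. The other 7 detected members lay within 1.5-fold. The plot of member intensities shows each probe on both arrays.

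**Figure D1:**
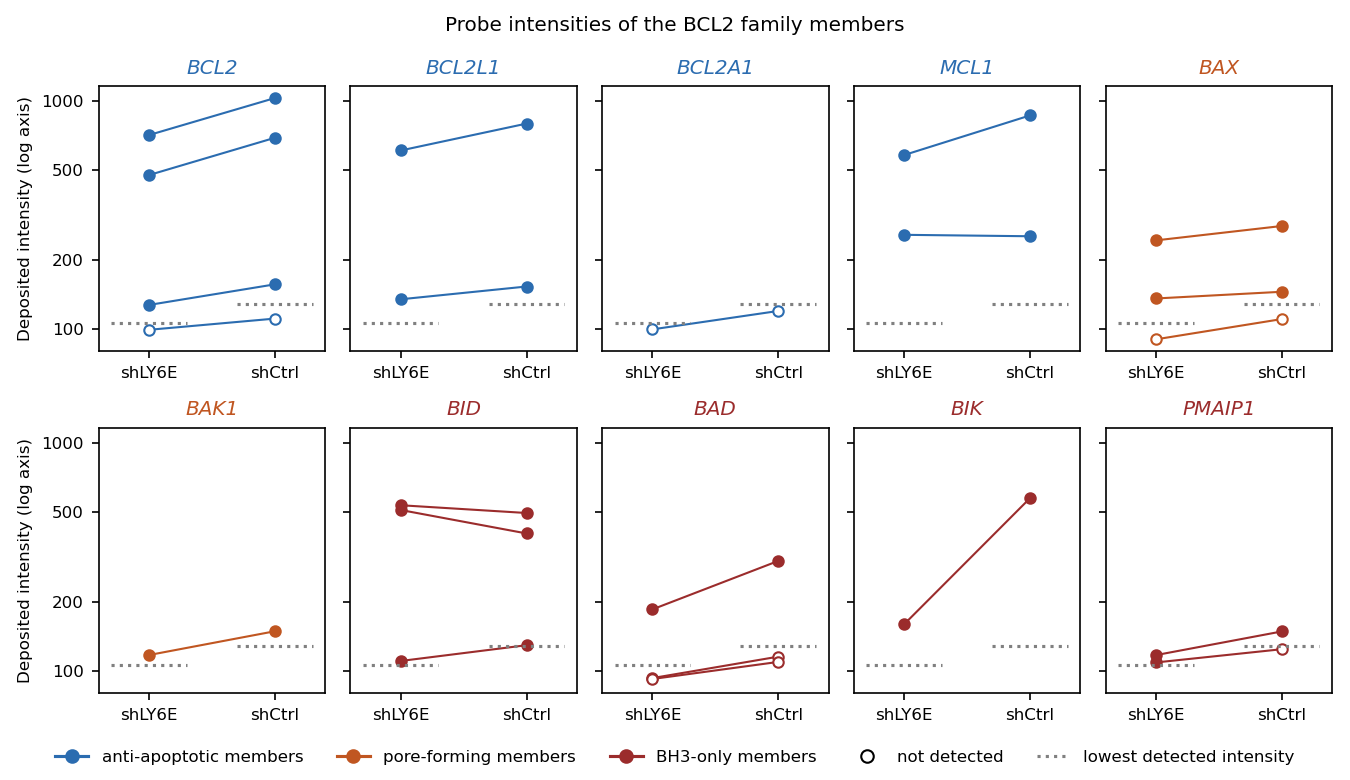
Deposited intensity (log axis) of the 22 probes of the 10 BCL2 family members, shLY6E on the left and shCtrl on the right of each panel, with a line for each probe and open points where it was not detected. Lines slope up to the right for 19 of the 22 probes, as for most of the array, and down for both bright BID probes and slightly for 1 MCL1 probe, while BIK has the steepest slope.

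Sequences upstream of the start are shown for BID, the member with the largest difference towards shLY6E, and for BCL2A1, the member with no detected probe, since the family's transcription factors are described further on. Each window holds 250 bases before and 50 after the start, written 5′ to 3′ on the minus strand, from RefSeq on GRCh38.p14. Capitals mark matches, on either strand, to the GC box GGGCGG, the E-box CACGTG, the TATA box TATAAA or the NF-kB consensus, and no matches overlap in the windows shown. BID has 5 such windows for its different starts, of which the one at chr22:17774420-17774719 is shown first and BCL2A1 at chr15:79971147-79971446 follows.
BID: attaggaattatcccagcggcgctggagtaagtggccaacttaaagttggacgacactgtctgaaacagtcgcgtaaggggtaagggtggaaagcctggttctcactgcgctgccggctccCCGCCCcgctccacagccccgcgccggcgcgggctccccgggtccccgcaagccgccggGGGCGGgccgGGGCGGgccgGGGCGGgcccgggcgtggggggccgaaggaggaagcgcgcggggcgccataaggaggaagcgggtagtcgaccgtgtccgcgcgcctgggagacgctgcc
BCL2A1: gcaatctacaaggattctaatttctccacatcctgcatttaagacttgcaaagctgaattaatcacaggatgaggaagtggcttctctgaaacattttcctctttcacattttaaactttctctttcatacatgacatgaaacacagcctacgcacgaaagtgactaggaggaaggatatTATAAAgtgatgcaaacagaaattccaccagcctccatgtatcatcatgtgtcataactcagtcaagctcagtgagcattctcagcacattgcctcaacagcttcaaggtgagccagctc
The BID window was 71.7% G and C with 37 CpG dinucleotides and held 4 GC boxes, and the BCL2A1 window was 41.0% G and C with 2 CpG dinucleotides and held 1 TATA box. Over 35116 windows of the same length the medians were 58.7% and 14 CpG dinucleotides, 45.0% held a GC box, and 11.5% a TATA box. The NF-kB consensus was found in 11.3% of all windows and in 0 of the 14 windows of the 8 members that had one, and the E-box, found in 7.26% of all windows, occurred 4 times in the window of BAX and once in 2 of the BID windows not shown. A match is a match of letters and no evidence of binding.

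Among the anti-apoptotic members, none of the 3 detected genes was 1.5-fold apart. BCL2, which sequesters BH3-only proteins and BAX at the mitochondrial and endoplasmic reticulum membranes, had an intensity of 711 in shLY6E cells and 1034 in shCtrl cells with its brightest probe, and 474 and 691 with the next. On the normalized scale both probes differed by -0.014, well inside the spread between probes. A dimmer probe, assigned to another RefSeq transcript of BCL2, had 127 in shLY6E cells and 156 in shCtrl cells, a difference of 0.11, and the other probe of that transcript was not detected on either array. All 3 detected probes of BCL2 thus differed by less than the spread between probes.

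BCL2L1, which encodes BCL-XL, had an intensity of 608 in shLY6E cells and 798 in shCtrl cells, a log2 difference of 0.17, which became -0.30 when the arrays were scaled to a common median over all probes. Its second probe, at 135 in shLY6E cells and 153 in shCtrl cells, gave 0.39, so that both probes lay above the median of all genes and within 1.5-fold. MCL1, a short-lived protein on which myeloid cells depend, gave a split reading. Its brighter probe had 580 in shLY6E cells and 867 in shCtrl cells, a difference of -0.038. Its other probe had 259 in shLY6E cells and 255 in shCtrl cells, and 0.73 after normalization. Both are assigned to the same RefSeq transcript, and which of them follows the MCL1 mRNA more closely was not tested.

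BCL2A1, which encodes BFL-1 and is a known target of NF-kB in blood cells, was read by 1 probe. That probe had an intensity of 99.2 in shLY6E cells and 119.5 in shCtrl cells, below the lowest detected intensity on either array, with detection p-values of 0.112 and 0.0649. No difference is given for it. At this sensitivity its 1 probe did not detect BCL2A1 mRNA in either derivative. The annotation used here named no second probe of BCL2A1.

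Both pore-forming members were detected. BAX, which resides in the cytosol until activated, had 244 in shLY6E cells and 283 in shCtrl cells, a log2 difference of 0.37 or 1.29-fold, which became -0.064 when the arrays were scaled to a common median over all probes. That scaling moved the median of all genes to -0.42, and relative to it BAX stood at 0.35. A second detected probe had 136 in shLY6E cells and 145 in shCtrl cells, a difference of 0.61, and the third was not detected. By its brightest probe BAX lay at percentile 86.3 of the 9364 genes detected on both arrays. BAK1, which is anchored in the outer membrane, had 117 in shLY6E cells and 149 in shCtrl cells with its only probe, close to the detection limit, and a difference of -0.062.

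The BH3-only members spread the widest, from BIK at -1.97 to BID at 0.77. BID links death receptors to the mitochondrion once caspase-8 has cleaved it. Its brightest probe had an intensity of 534 in shLY6E cells and 494 in shCtrl cells, a log2 difference of 0.77 or 1.71-fold higher in shLY6E. The next probe had 509 in shLY6E cells and 401 in shCtrl cells, a difference of 1.06. Both probes were thus brighter in shLY6E cells before any normalization, on an array where few probes were. The third probe had 110 in shLY6E cells and 129 in shCtrl cells, at the detection limit of both arrays, and differed by 0.18. By its brightest probe BID ranked 343 from the highest of the 9364 genes. Scaled to a common median over all probes, BID stood at 0.30, under 1.5-fold, and at 0.72 relative to all genes.

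BIK, a BH3-only protein of the endoplasmic reticulum, was read by 1 probe, with an intensity of 160 in shLY6E cells and 573 in shCtrl cells. The normalized log2 intensity was 6.67 in shLY6E cells and 8.64 in shCtrl cells, so BIK was 3.92-fold lower in shLY6E, at 25.5% of the shCtrl level. Of the 9364 genes that both arrays detected, 11 had a lower value. Without background correction the difference was -1.31, still over 2-fold. The annotation used here named no second probe of BIK to read against it.

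BAD, which binds BCL2 and BCL-XL unless it is phosphorylated, had 186 in shLY6E cells and 304 in shCtrl cells, a log2 difference of -0.40 or 1.32-fold lower in shLY6E. Its other 2 probes were not detected on either array. PMAIP1 encodes NOXA, which binds MCL1, and its brighter probe had 117 in shLY6E cells and 149 in shCtrl cells, a difference of -0.059. The other probe was detected in shLY6E cells only, at 109 against 124 in shCtrl cells, at least 1.08-fold higher in shLY6E after normalization. BAD lay below and PMAIP1 near the middle of all genes, at percentiles 17.1 and 48.2.

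**Figure D2:**
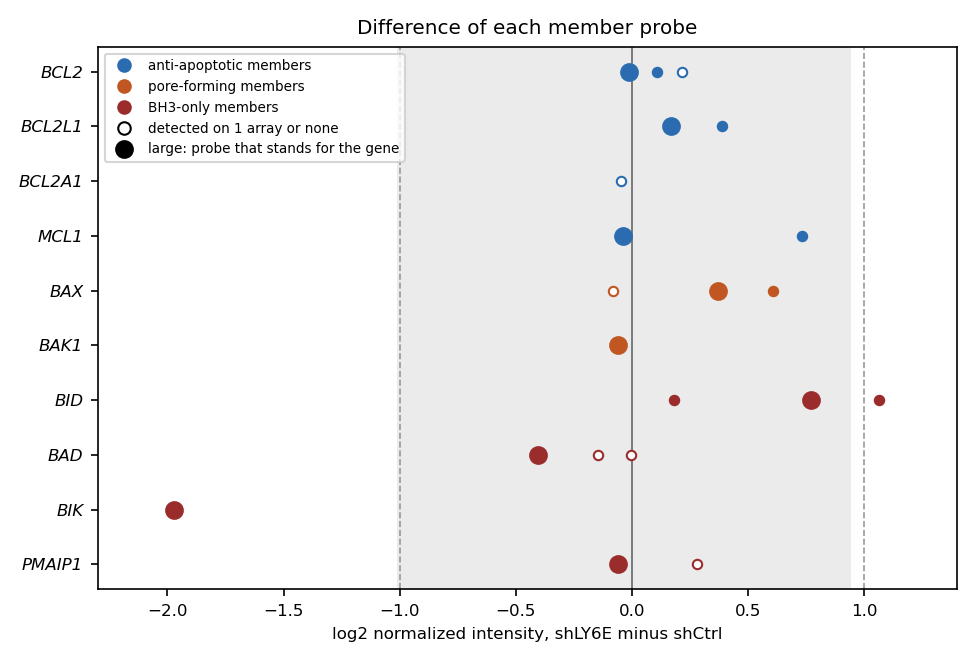
Difference in log2 normalized intensity, shLY6E minus shCtrl, for every probe of the 10 members, coloured by role, with open points for probes not detected on both arrays and dashed lines at 2-fold. The shaded band holds the central 95% of all 10565 genes, and BIK at -1.97 and 1 BID probe at 1.06 lie outside it.

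Set by role, the 3 detected anti-apoptotic members had a median difference of -0.014 and the 6 pro-apoptotic members a median of -0.060, beside -0.041 over all detected genes. The anti-apoptotic genes ran from -0.038 to 0.17, and the pro-apoptotic genes from -1.97 to 0.77. Leaving out BIK moved the pro-apoptotic median to -0.059. With the mean over each gene's probes the medians were 0.28 for the anti-apoptotic and -0.018 for the pro-apoptotic members. In the pro-apoptotic group the most shifted genes lay on opposite sides of 0.

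BIK and BID both lie on chromosome 22, and none (0) of the 10 members lies on chromosome 10, whose 324 genes detected on both arrays had a median of -0.80. Around BIK, the 10 nearest such genes on either side had a median of -0.10, with SCUBE1 the lowest at -0.86. Of the 238 chromosome 22 genes detected on both arrays BIK was the lowest, and the chromosome median was -0.098. Around BID, 18 neighbours had a median of 0.055 and ran from -0.99 to 0.80, the highest being ADA2.

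**Figure D3:**
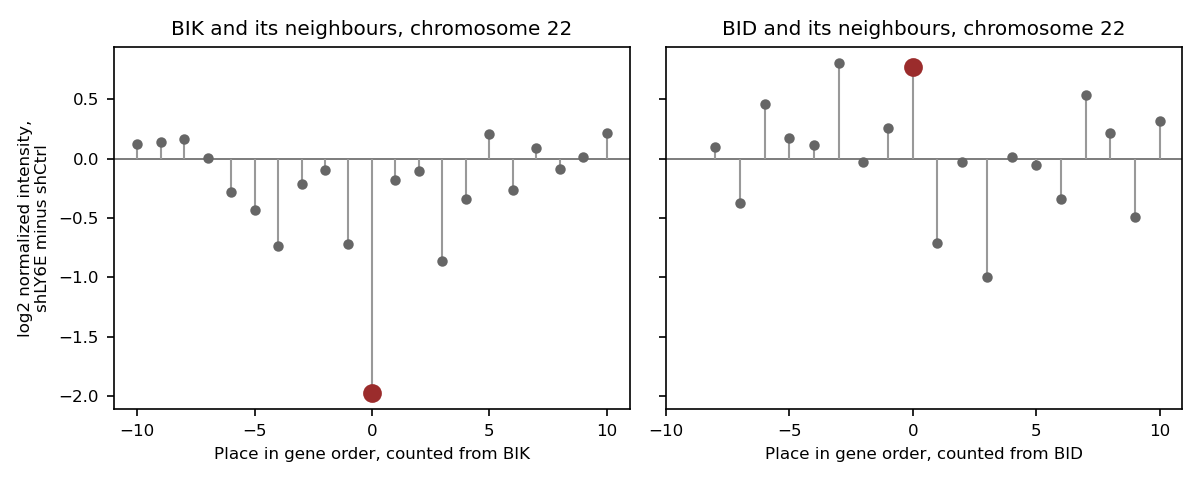
Difference in log2 normalized intensity, shLY6E minus shCtrl, for BIK (left, red) and BID (right, red) and for up to 10 neighbouring genes on either side in gene order (grey), among genes detected on both arrays. BIK at -1.97 stands apart from its neighbours, the lowest of which is at -0.86, while BID at 0.77 has 1 neighbour as high.

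Of 13 further relatives of BCL2, 8 were detected, with a median of 0.14. In shLY6E cells 1 of them exceeded 1.5-fold upwards, against 6.55% of all genes, and 3 exceeded it downwards, against 9.63%. BMF, a BH3-only protein tied to the cytoskeleton in resting cells, had 249 in shLY6E cells and 163 in shCtrl cells, 3.48-fold higher in shLY6E, and its other detected probe gave 2.21 on the log2 scale. On that scale its brightest probe gave 1.80, or 0.96 without background correction, just under 2-fold. BNIP3, a mitochondrial protein of mitophagy whose gene lies on chromosome 10, had 397 in shLY6E cells and 1246 in shCtrl cells, 2.41-fold lower in shLY6E. BCL2L12 was 1.77-fold lower, with 565 in shLY6E cells and 1367 in shCtrl cells, and all 3 of its probes ran the same way. The BAX-like gene BOK was 1.58-fold lower, with 116 in shLY6E cells and 177 in shCtrl cells, near the detection limit. BCL2L2, BBC3, BCL2L13 and BNIP3L lay within 1.5-fold, and BCL2L10, BCL2L11, HRK, BCL2L14 and BCL2L15 were not detected. With BIK lower and BMF higher, the BH3-only genes with the largest differences had opposite signs, under every setting tried.

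Downstream of the pore, 9 of 13 genes of the apoptosome and caspases were detected, with a median of -0.096. Of these, 1 was at least 1.5-fold higher, against 6.55% of all genes, and 2 were lower, against 9.63%. CASP9, the initiator caspase of the apoptosome, had 147 in shLY6E cells and 281 in shCtrl cells, 1.86-fold lower in shLY6E, and its second probe gave -0.32. ENDOG, a mitochondrial nuclease, was 1.73-fold lower, and AIFM1, a flavoprotein of the intermembrane space, was 1.57-fold higher. CYCS, which encodes cytochrome c, and its partner APAF1 lay within 1.5-fold, at 0.52 and -0.25. CASP8 and CASP10 were not detected. Of the outer-membrane channel genes, VDAC1 and VDAC3 lay within 1.5-fold. VDAC2, on chromosome 10, had 84.4 in shLY6E cells, where it was not detected, and 131 in shCtrl cells, and was at least 1.07-fold lower in shLY6E, with a measured log2 difference of -0.89.

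Of 8 inhibitors of caspases, 5 were detected, with a median of 0.20. Of these, 1 was at least 1.5-fold higher, against 6.55% of all genes, and 0 were lower, against 9.63%. CFLAR, which encodes the caspase-8 inhibitor FLIP, had 373 in shLY6E cells and 381 in shCtrl cells, 1.54-fold higher in shLY6E after normalization. NAIP, detected in shLY6E cells only, was at least 1.15-fold higher, and close copies of its gene may share its probes. Of 11 death receptors, ligands and adaptors, 7 were detected, 6 of them on both arrays and within 1.5-fold. The seventh, TNFRSF10D, was detected in shLY6E cells only and was at least 1.03-fold higher, with a measured difference of 0.47, and its bound of 0.044 was the list median. Among 10 genes that act on the turnover or phosphorylation of MCL1 and BAD, 9 were detected on both arrays. Of these PIM1 was the 1 past 1.5-fold, beside the same shares of all genes. PIM1, a kinase that phosphorylates BAD, had 311 in shLY6E cells and 197 in shCtrl cells, 3.30-fold higher in shLY6E, and its log2 difference was 1.72, or 1.06 without background correction. The related kinase gene PIM3 was detected in shLY6E cells only and was at least 1.23-fold higher, with a measured difference of 0.90. AKT1, another kinase of BAD, stood at -0.43, and the MCL1 ligase genes HUWE1 and FBXW7 at 0.12 and -0.041.

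Of 14 transcription factors known to act on member genes, 13 were detected, and their median was 0.64. In shLY6E cells 7 of the 13 were higher by 1.5-fold or more, against 6.55% of all genes. By that much 0 were lower, against 9.63% of all genes. This list was put together with the earlier finding of higher NF-kB genes in view and is no separate evidence of it. RELB had 553 in shLY6E cells and 273 in shCtrl cells, 3.88-fold higher, and NFKB1 had 2317 in shLY6E cells and 1382 in shCtrl cells, 2.45-fold higher. NFKB2, whose gene lies on chromosome 10, was 1.98-fold higher, with 218 in shLY6E cells and 195 in shCtrl cells. REL, with 126 in shLY6E cells and 127 in shCtrl cells, was detected in shLY6E cells only. Its bound was 1.77-fold higher in shLY6E after background correction, but its log2 difference was 0.25 without that correction. STAT5A was 1.73-fold, ATF3 1.58-fold and STAT5B 1.56-fold higher. BCL2L1, which NF-kB is known to induce, was at 0.17 with its brightest probe and 0.39 with the other. The 1 probe of BCL2A1, also a known target, was not detected. E2F1, which is known to act on BIK, was at 0.0072. Whether any of these factors acted on a member gene here was not tested. Of the 16 genes of the pathway lists that were 1.5-fold apart, 10 came under 1.5-fold without background correction, and BMF, BCL2L12, BNIP3, PIM1, RELB and NFKB1 did not.

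**Figure D4:**
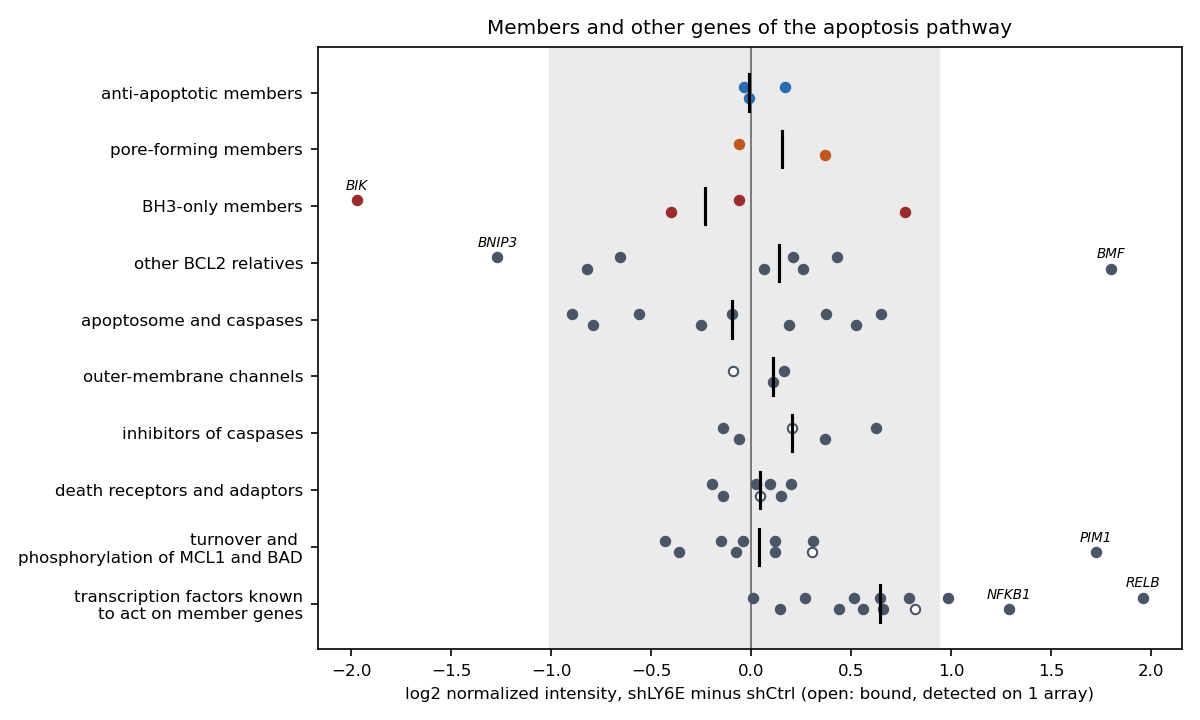
Difference in log2 normalized intensity, shLY6E minus shCtrl, for each detected gene of the member roles and of 7 pathway lists, with black bars at list medians, open points for bounds and the central 95% of all genes shaded. BIK and BNIP3 lie furthest to the left, and BMF, PIM1, NFKB1 and RELB furthest to the right.

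Some monocytic markers differed too: of 11 detected, 3 were at least 1.5-fold higher in shLY6E, against 6.55% of all genes. By that much 0 were lower, against 9.63% of all genes. The other 8 lay within 1.5-fold, the lowest being ITGAM at -0.48, and the median of the 11 was 0.35. CD14, the lipopolysaccharide co-receptor, had 512 in shLY6E cells and 153 in shCtrl cells, 10.3-fold higher in shLY6E, LYZ, which encodes lysozyme, was 5.25-fold higher, and CSF1R, the receptor of macrophage colony-stimulating factor, 1.93-fold. By their brightest probes, the differences of CD14 and LYZ were larger than that of any member. The other detected LYZ probe gave 1.36 on the log2 scale, smaller in size than BIK at -1.97. Of 14 markers of other cell types with a probe, 10 were not detected, T-cell CD3D and CD3E and epithelial EPCAM among them. CD79A, PPBP, PECAM1 and NKG7 were detected, and NKG7 was 3.39-fold higher in shLY6E, with 571 in shLY6E cells and 308 in shCtrl cells. The part of these markers in the differences of BIK and BID was not tested.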

How the data were processed

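Total RNA of THP-1 shLY6E and shCtrl cells was read on 1 Illumina array each, and groups were taken from the sample titles. The deposited unnormalized table held linear intensities and a detection p-value for each probe, per the file headers. A second deposited table held processed intensities of the authors, 25.5% of them below 0 and with a median of 6.14 in both columns. No source used here says how that table was background-subtracted and normalized.

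Intensities were corrected with normexp through the detection p-values, 16 was added, and log2 values were taken after quantile normalization (R 4.3.3 with limma 3.58.1). Later steps used Python 3.11.15, numpy 2.4.6, pandas 2.3.3 and matplotlib 3.10.9. A gene was kept if a probe had a detection p-value under 0.01 on at least 1 array, and the brightest kept probe stood for it. A gene detected on 1 array was given as a bound: on the other array its value was raised to that array's lowest detected value, if below it. The offset shrinks differences of dim genes. The platform annotation gave 1 symbol to 30113 probes, several to 8 and none to 17200, and a RefSeq table (GRCh38.p14) gave chromosomes and gene order.

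All 10 members were named, and of the pathway lists the genes at least 1.5-fold apart. Genes within 1.5-fold or not detected were named as examples after their values were seen. Members and lists were chosen with earlier results of these data known. No test was possible with 1 array in each group. The steps were also run on simulated arrays, and the outcome is not given here. In all, 10 other settings were tried, 1 of them chosen after seeing the data.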

Additional observations from a re-analysis of the deposited data

How the results depend on the processing

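BIK was lower by over 2-fold under each of 10 other settings, from -2.41 to -1.31, and BID higher, from 0.30 to 0.81. Of these settings, 1 was chosen after seeing the data. Those that changed only the detection filter, the averaging over probes or the handling of bounds could not move BIK. It has 1 probe, detected on both arrays. The counts of members at least 2-fold higher and lower stayed at 0 and 1. Scaling to a common median over all probes, which lies near the background, moved the median of all genes to -0.42. It gave -0.46 for BCL2, -0.30 for BCL2L1, -0.51 for MCL1, -0.064 for BAX, -0.34 for BAK1, 0.30 for BID, -0.83 for BAD, -2.41 for BIK and -0.34 for PMAIP1, with medians of -0.46 for anti-apoptotic and -0.34 for pro-apoptotic members. Relative to all genes under that scaling, BCL2 stood at -0.040, BID at 0.72 and BIK at -1.99. Of all genes, 130 then passed 2-fold upwards and 909 downwards (12.5% upwards), against 240 and 269 (47.2%) as reported. Scaling to the median of probes detected on both arrays, chosen after seeing the data, gave -1.98 for BIK, 0.73 for BID and 264 and 237 genes. BIK was -1.31 without background correction and -1.67 with offset 50, which shrink differences by construction, and the counts over all genes were then 86 and 55, and 144 and 129. The mean over probes gave 0.35 for MCL1, through its dimmer probe. The anti-apoptotic median was then 0.28, the value of BCL2L1 averaged over its probes. The 16 named pathway genes at least 1.5-fold apart kept their sign under every setting that gave a value. Of them, 10 came under 1.5-fold without background correction, 7 with the common median, 6 with offset 50 and 1, BOK, with the median of detected probes. Background limits dim probes: the median detected probe was 2.18-fold over background on the shLY6E array, and 2.54-fold for shCtrl. No paired analysis was possible because only 1 array was made for each derivative.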

Other observations

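Probes of 1 gene disagreed more for MCL1 and BID than for most genes. The differences of the MCL1 probes lay 0.77 apart on the log2 scale, a gap reached by 7.45% of the 2254 genes for which both arrays detected 2 or more probes, and those of BID 0.88 apart, a gap reached by 4.57%. The median gap was 0.25. The low end of BID was its probe at the detection limit, at 0.18, while the 2 brighter probes gave 0.77 and 1.06. For MCL1 and BAX the brightest probe lay within 1.5-fold while another detected probe lay past it, which held for 228 of 1899 such genes. No explanation was tested.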
